A study of Mus musculus with 4 samples.

Results

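RNA of B16F10 tumors grown in mice was compared with RNA of the same melanoma line grown alone as a 2D monolayer. The comparison covered every gene whose mean over both libraries reached 10 CPM (read counts scaled to a common library size), which left 9681 of the 24527 gene symbols in the count table. Genes under 1 CPM in the 2D monoculture (310 genes) were kept apart from genes with at least 10 CPM there (9013 genes), and 358 genes lay between both limits. A gene of the first class had to be higher in the tumor to reach the mean, so no direction was read from that class. Genes with at least 10 CPM in the 2D monoculture could lie on either side. Those just above 10 CPM still needed a similar or higher tumor value to reach the mean. That filter left out 201 genes with at least 10 CPM in the 2D monoculture. The differences of melanoma-expressed genes were read from the class with at least 10 CPM. Each condition had 1 library, so no difference had a replicate check and no p-value was computed.

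B16F10 is a pigmented melanoma line derived from C57BL/6 mice. By the study's methods, the tumors came from cells injected under the skin of both flanks of one-year-old female C57BL/6 animals and were taken at a fixed volume. The label of the tumor library gives a snap frozen tumor and no cell line, whereas the methods describe cells sorted from tumors. The monolayer cells were, by the methods, a B16F10 derivative with a cytoplasmic green fluorescent protein, sorted for green fluorescence and for exclusion of a dead-cell dye. Both libraries carry the genotype label WT. The methods give n = 3 beside the extraction of RNA, and neither they nor the labels say whether a library is a pool. RNA of a 2D co-culture and of spheroids of the same cells with NIH/3T3 fibroblasts was counted in the same table, with 1 library each, after the same sort for green fluorescence by the methods, and is quoted only beside the genes described here.

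A transplanted melanoma is a tissue: melanoma cells grow among fibroblasts that lay down collagen, vessels, macrophages and, at its edge, the fat and thin muscle sheet of the skin. A monolayer holds the melanoma cells alone, with medium, serum and oxygen supplied evenly. Tumor cells in a host are also reached by interferon from immune cells, which raises antigen presentation, and by local shortage of oxygen. The regulators p53, NRF2 and ATF4 answer to DNA damage, oxidants and shortage of amino acids. In bulk RNA, fewer cells of a type and less RNA per cell cannot be told apart.

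The tumor library held 139592426 counted reads and the 2D monoculture 144817414, so 3 reads, the upper limit that a count of 0 allows, came to 0.0185 and 0.0211 CPM. Intervals given below are 95% intervals of the ratio with nothing added, and they cover counting error only. They are narrow at this depth and say nothing of how tumors or cultures vary. Log2 ratios are tumor over 2D monoculture with 1 CPM added to each value. With total counts or upper quartiles in place of TMM factors, the ratios of the class with at least 10 CPM moved up by 0.24 or 0.25.

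Among the 9013 genes with at least 10 CPM in the 2D monoculture, 330 (3.66%) were over 2-fold higher in the tumor and 2024 (22.5%) over 2-fold lower, with a median log2 ratio of -0.35 and quartiles of -0.93 and 0.22. The share of higher genes among those past 2-fold was 14.02%, 32.2% with total counts, 32.6% with upper quartiles and 44.6% when the class was centred on its own median. Over 4-fold, 47 genes were higher and 247 lower. Over all 9681 members, 874 (9.03%) were higher and 2024 (20.9%) lower, and with GC content and length removed 10.1% were higher and 5.17% lower of those with a value. The 3 classes and the genes that stand farthest from equal levels are seen in the plot of both libraries.

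**Figure D1:**
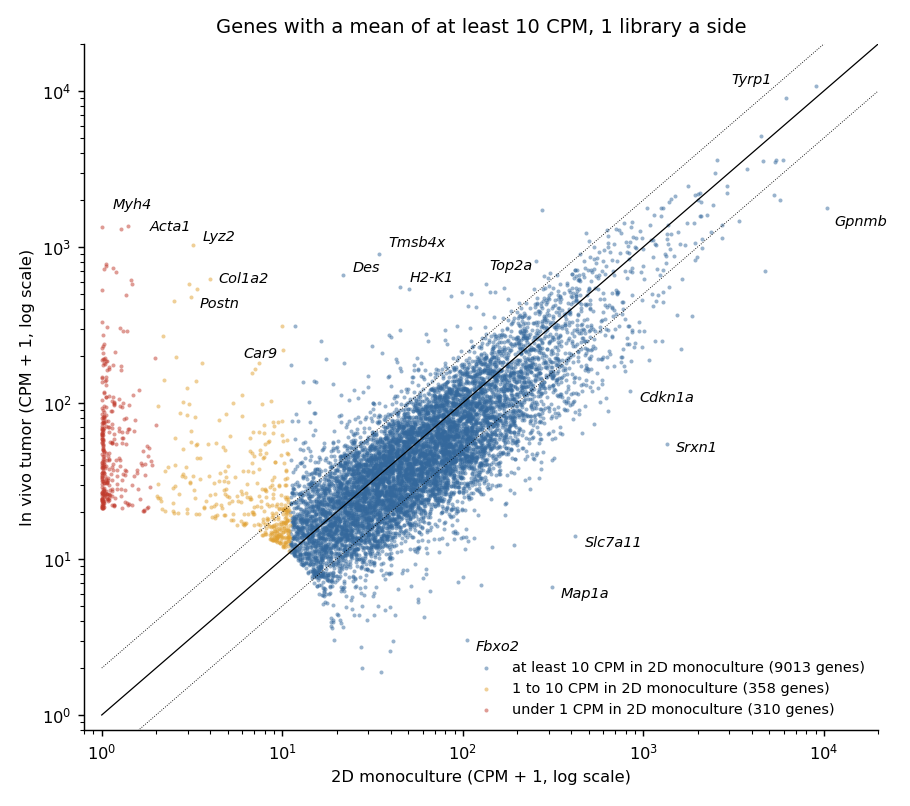
CPM of each of the 9681 genes in the 2D monoculture (x axis, log scale, 1 CPM added) and in the in vivo tumor (y axis, log scale, 1 CPM added). Each point is a gene, coloured by its class, the solid line marks equal levels and the dotted lines 2-fold; the 310 genes under 1 CPM in the 2D monoculture form a column at the left and reach 1360 CPM in the tumor.

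The 310 genes under 1 CPM in the 2D monoculture took 3.37% of the tumor's reads and 0.0046% of the monoculture's. Their median was 44.8 CPM in the tumor and 0.0491 CPM in the 2D monoculture, where 34 of them had no read. The same genes took 0.0142% of the reads of spheroids and 0.108% of those of the co-culture. Under 1 CPM were 282 of them in spheroids and 235 in co-culture. Of the 310, 80 were on the lists of markers of other cell types and 220 were on no list. Another 227 genes had at least 10 CPM in the tumor and under 1 CPM in the 2D monoculture but a mean under 10 CPM, and are not among the members.

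Skeletal muscle genes were the most abundant of this class. Acta1, the skeletal muscle actin, had 1360 CPM in the tumor and 0.400 CPM in the 2D monoculture. Myh4, the myosin heavy chain of fast IIb fibers, had 216837 reads (1336 CPM) in the tumor and none in the 2D monoculture, at least 63428-fold higher against a floor of 3 reads. The fast troponins were high too: Tnnt3 had 755 CPM, Tnnc2 733 CPM and Tnni2 329 CPM in the tumor, against 0.0491, 0.161 and 0 CPM. Ckm, the muscle creatine kinase, had 615 CPM and Atp2a1, the fast-fiber calcium pump of the sarcoplasmic reticulum, 492 CPM, and both were under 1 CPM in the 2D monoculture. Fhl1, a LIM protein abundant in muscle, had 307 CPM and Mybpc2, the fast myosin-binding protein C, 300 CPM.

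The myosins differed by fiber type. Per kilobase of the longest annotated transcript, Myh4 reached 222 CPM in the tumor, Myh1 of IIx fibers 23.5, Myh2 of IIa fibers 2.92 and Myh7 of slow fibers 0.0267. The fast isoforms thus led by level, and Myh7 (0.166 CPM in the tumor and 0.491 CPM in the 2D monoculture) was the only one of the 25 muscle genes not above the 2D monoculture. These myosins are near-identical copies in parts, so the split of reads among them is uncertain. In sum the 25 muscle genes had 9102 CPM in the tumor and 77.0 CPM in the 2D monoculture, 86.1 CPM in co-culture and 164 CPM in the spheroid. Des, the desmin of muscle and pericyte intermediate filaments, carried 655.7 CPM in the tumor and 20.8 CPM in the 2D monoculture, and so fell into the class with at least 10 CPM, with the highest log2 ratio there (4.91).

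Fat cell genes formed another group. Car3, the carbonic anhydrase of adipocytes and slow muscle, had 773 CPM in the tumor and 0.0491 CPM in the 2D monoculture. Cfd, the complement protease adipsin, had 690 CPM and Fabp4, the adipocyte fatty-acid carrier, 575 CPM, against 0.197 and 0.477 CPM. Adipoq, which encodes adiponectin, had 117 CPM, whereas Lep, which encodes leptin, had 5.85 CPM and missed the mean of 10 CPM. The 15 adipocyte genes summed to 2853 CPM in the tumor and 130 CPM in the 2D monoculture, of which Pnpla2, a triglyceride lipase that melanoma cells expressed as well, made 63.6 and 85.7 CPM.

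Matrix genes of fibroblasts summed to 4966 CPM in the tumor, against 360 CPM in the 2D monoculture, 2044 CPM in co-culture and 459 CPM in the spheroid. Col3a1, the chain of type III collagen, had 1307 CPM in the tumor and 0.274 CPM in the 2D monoculture (53.1 CPM in co-culture). Postn, the matricellular protein periostin, had 476 CPM against 2.11 CPM. Both chains of type I collagen lay between the limits, with 575 CPM for Col1a1 and 622 CPM for Col1a2 in the tumor, against 2.03 and 2.97 CPM. Fn1, fibronectin, was already expressed by the monolayer, with 388 CPM in the tumor and 184 CPM in the 2D monoculture (log2 ratio 1.07).

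Of the 310 genes, 19 had at least 10 CPM in co-culture. They included Lox, the collagen-crosslinking lysyl oxidase, with 188 CPM in the tumor, 179 CPM in co-culture, 0.867 CPM in the spheroid and 0.00702 CPM (1 read) in the 2D monoculture. Col6a1 of type VI collagen had 107 CPM in the tumor, 133 CPM in co-culture and 3.38 CPM in the spheroid. Bgn, the proteoglycan biglycan, had 175 CPM in the tumor and 103 CPM in co-culture. The 19, which were chosen by their level in co-culture, also held Col6a2, Col6a3 and Col5a2 of the matrix, and genes of other kinds such as Fgfr1, a growth factor receptor, and Thy1, a surface glycoprotein. In contrast Acta1, Myh4, Car3, Cfd and Fabp4 stayed under 3 CPM there.

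Macrophage genes were the widest group of the class, with 20 of 25 under 1 CPM in the 2D monoculture and another 2 between the limits. Lyz2, the lysozyme of myeloid cells, had 1032 CPM in the tumor and 2.21 CPM in the 2D monoculture, the highest ratio between the limits (8.33). The complement subunits C1qa, C1qb and C1qc had 209, 231 and 190 CPM in the tumor, each at most 0.0211 CPM in the 2D monoculture. Ctss, the protease cathepsin S, had 239 CPM against 0.0281 CPM, and Ccl6, a chemokine of myeloid cells, 526 CPM against 0.00702 CPM. Apoe, which carries lipids and is made by macrophages and melanoma cells alike, had 1289 CPM against 629 CPM. Cd68 of the endosome had 64.2 CPM against 27.5 CPM (log2 ratio 1.19).

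The MHC class II genes, which present peptides to CD4+ T cells, summed to 847 CPM in the tumor and 9.46 CPM in the 2D monoculture. H2-Aa had 194 CPM, H2-Eb1 111 CPM and H2-Ab1 94.7 CPM in the tumor, each under 0.1 CPM in the 2D monoculture, and Cd74, the invariant chain, had 154 CPM against 5.78 CPM. Among the genes of dendritic cells, Irf8 was the 1 member of 10, with 24.3 CPM in the tumor. T and NK cell genes were low: none of 18 reached the mean of 10 CPM, and they summed to 22.96 CPM in the tumor and 2.74 CPM in the 2D monoculture. The highest of them, the kinase Lck, had 5.72 CPM in the tumor and 2.47 CPM in the 2D monoculture. Cd3e, the signalling chain of the T cell receptor, had 0.339 CPM. Neutrophil genes summed to 29.2 CPM in the tumor over 14 genes and 0.583 CPM in the 2D monoculture, and Csf3r, the receptor of granulocyte colony-stimulating factor, was highest with 7.29 CPM. Mast cell genes summed to 40.5 CPM, led by the receptor Kit with 11.9 CPM, which melanocytes use as well, and none of 9 was a member. Of the B and plasma cell genes, Xbp1, a factor of the unfolded protein response that all cells use, was the 1 member (172 CPM and 174 CPM), and Jchain, the joining chain of antibodies, had 17.3 CPM in the tumor. Only 8 of the 12 genes of that list were in the count table, without the antibody genes Ighm, Igkc, Ighg2c and Iglc2. Trac and Trbc2 of the T cell receptor were not in the table either. The sums of lymphoid genes leave these 6 genes out, and their levels are not known.

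Vessel genes were lower than macrophage genes but present. Of 21 endothelial genes, 8 were under 1 CPM in the 2D monoculture, 3 between the limits and 8 under the mean of 10 CPM. Pecam1, the adhesion molecule CD31, had 99.4 CPM in the tumor and 0.175 CPM in the 2D monoculture, and Cdh5, the cadherin of endothelial junctions, 64.2 CPM against 0.0913 CPM. Eng, a co-receptor for TGF-beta that the melanoma line expressed, was over 2-fold lower in the tumor (92.4 CPM and 285 CPM). For pericytes and smooth muscle, Acta2, the smooth muscle actin, had 100 CPM in the tumor, 43.6 CPM in co-culture and only 0.175 CPM in the 2D monoculture, and Rgs5, a pericyte regulator of G protein signalling, had 94.9 CPM against 0.267 CPM.

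Skin keratinocytes were scarcely seen. The 13 Schwann cell and nerve genes summed to 560 CPM in the tumor and 1134 CPM in the 2D monoculture, so nerve was not read from their sum. Keratinocyte genes summed to 10.3 CPM in the tumor over 14 genes, of which Sbsn, suprabasin, made 7.26 CPM, and the basal keratins Krt5 and Krt14 had 0.166 and 0.234 CPM. Among Schwann cell genes Mbp, myelin basic protein, stood out with 137 CPM in the tumor and 2.34 CPM in the 2D monoculture. Of the erythroid genes, Alas2, the heme synthesis enzyme of red cells, had 12.2 CPM in the tumor, and the 4 globin genes were listed at 0 in every library. Whether globin reads were left out of the counting is not known, so no level of red cell RNA was read from them. Plasma and acute-phase genes included Hp, haptoglobin, with 727 CPM in the tumor and 0.0351 CPM in the 2D monoculture, and complement C3 with 210 CPM against 0.183 CPM, while the liver products Alb and Apoa1 stayed at 0.111 and 0.0370 CPM. Xist, the RNA that coats the inactive X chromosome, had 69.9 CPM in the tumor and 0.0491 CPM in the 2D monoculture, and the mice were female.

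**Figure D2:**
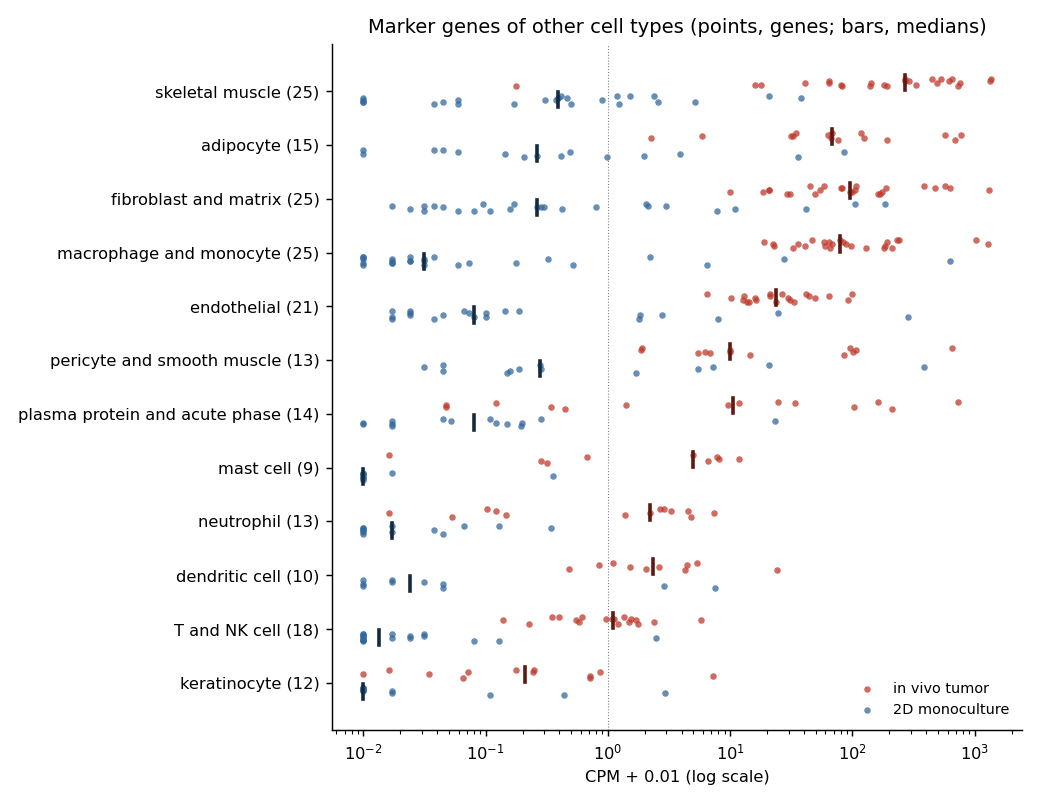
CPM (x axis, log scale, 0.01 CPM added) of genes of 12 marker lists, in the in vivo tumor (red) and the 2D monoculture (blue). Points are genes with a read in any of the 4 libraries, bars are medians, and the number of genes is in brackets. Muscle, fat, matrix and macrophage genes have medians of 68.3 to 267 CPM in the tumor and under 1 CPM in the 2D monoculture, whereas T and NK cell genes have a tumor median of 1.08 CPM.

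The genes between 1 and 10 CPM in the 2D monoculture held 234 that were over 2-fold higher in the tumor and 0 that were lower, and they had to be near or above 10 CPM in the tumor to be members. Their highest ratios belonged to Lyz2, Col1a1, Actn3, Mylpf and Col1a2. Actn3, the alpha-actinin of fast fibers, had 449 CPM against 1.52 CPM and Mylpf, the fast regulatory myosin light chain, 534 CPM against 2.38 CPM. At the other end were Armcx4 (10.2 and 9.95 CPM), Primpol, a primase-polymerase (11.1 and 9.73 CPM), Chd3os (10.9 and 9.36 CPM), 1600002K03Rik (10.9 and 9.10 CPM) and Mettl15 (11.2 and 9.20 CPM). At the limits themselves, Ankrd1 had 0.997 CPM in the 2D monoculture and Nlrc5 1.03 CPM, Gm10069 had 9.995 CPM and Slx4ip 10.02 CPM, and the mean over both libraries was 9.99 CPM for Borcs7, which was left out, and 10.003 CPM for Mrgpre, which was kept.

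Pigment genes were among the most abundant of both libraries. Tyrp1, an enzyme of melanin synthesis, had 8948 CPM in the tumor and 6168 CPM in the 2D monoculture (log2 ratio 0.54). Dct, dopachrome tautomerase, had 5127 and 4482 CPM, Pmel, the fibril protein of melanosomes, 2208 and 2923 CPM, and Mlana 759 and 622 CPM. Tyr, tyrosinase, the first enzyme of the pathway, had 864 and 506 CPM and Mitf, the master factor of melanocytes, 708 and 416 CPM (log2 ratio 0.77 for both). None of these 6 genes passed 2-fold. No marker of another cell type named above reached the level of Tyrp1 or Dct in either library.

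Over all 20 genes of melanin synthesis and melanosomes, 1 was over 2-fold higher and 4 were lower in the tumor. The class with at least 10 CPM had 3.66% higher and 22.5% lower. The median log2 ratio of the 20 was 0.18 (-0.01 with GC content and length removed, as described below). The higher one was Oca2, a melanosomal chloride channel (65.6 and 23.02 CPM). Gpnmb, a glycoprotein of melanosomes and lysosomes and the gene with most reads in the 2D monoculture, had a log2 ratio of -2.55 (1772 CPM in the tumor and 10390 CPM in the 2D monoculture). Slc7a11, the cystine transporter that also sets pheomelanin synthesis, had a log2 ratio of -4.92. Sox10, a factor of the neural crest, had 237 CPM in the tumor and 834 CPM in the 2D monoculture (log2 ratio -1.81, and -0.76 with GC content and length removed). Axl, a receptor tyrosine kinase of the dedifferentiated melanoma state that other cells use as well, had 65.3 and 18.2 CPM (log2 ratio 1.79). Ednrb, the endothelin receptor of melanoblasts and of endothelium, had 73.5 CPM in the tumor and 0.00702 CPM in the 2D monoculture.

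Interferon-stimulated genes stood higher in the tumor. Of 36 in the table, 13 had at least 10 CPM in the 2D monoculture, and 10 of the 13 were over 2-fold higher and 0 lower, where the class had 3.66% higher. Their median log2 ratio was 1.22 (1.21 with GC content and length removed), and the tumor had the highest value of the 4 libraries for 12 of the 13, against 21.7% of the class. Irgm1, a GTPase of defence against intracellular microbes, had 181 CPM in the tumor and 21.1 CPM in the 2D monoculture, a log2 ratio of 3.04. Bst2, the tetherin of virus release, had 148 and 28.9 CPM, and Cxcl10, a chemokine for T cells, 86.9 and 29.6 CPM. Rsad2, the antiviral enzyme viperin, was the lowest of the 13, with 67.7 and 83.2 CPM. The other members were the 5 under 1 CPM in the 2D monoculture, which included Iigp1 (147 and 0.0491 CPM) and Cxcl9 (66.2 and 0.0140 CPM), and the 11 between the limits, which included Gbp2 (112 and 5.005 CPM) and Igtp (99.9 and 1.81 CPM), both GTPases induced by interferon gamma. These had to be higher to be members or nearly so. Ifng itself had 0.388 CPM in the tumor and no read in the 2D monoculture.

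MHC class I genes stood higher as well. Of 9 with at least 10 CPM in the 2D monoculture, 6 were over 2-fold higher, against 3.66% of the class, and 1 lower, with a median log2 ratio of 1.45 (1.79 with GC content and length removed). H2-K1, a heavy chain of class I, had 550 CPM in the tumor and 44.1 CPM in the 2D monoculture (log2 ratio 3.61, interval of the ratio with nothing added 3.61 to 3.68). B2m, the light chain common to all class I molecules, had 1727 and 274 CPM (log2 ratio 2.65). Psmb8, a subunit of the immunoproteasome, had 50.2 CPM in the tumor and 0.0140 CPM in the 2D monoculture, Tap1 of the peptide transporter 55.5 and 7.37 CPM, and Nlrc5, the class I transactivator, 24.2 and 1.03 CPM. The lower gene was Calr, the chaperone calreticulin, with 863 and 1994 CPM. The class I heavy chains share long stretches of sequence, so reads may be split among H2-K1, H2-D1 and the H2-Q genes. Host cells express all of these genes too. The macrophage list summed to 4568 CPM in the tumor against 667 CPM in the monolayer, and its part in these differences was not tested.

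The promoters of these genes were read for the interferon-stimulated response element, searched on both strands as a pair of GAAA runs with any 2 bases between them, in RefSeq windows of the GRCm38.p6 build. It was found in 15 of 26 interferon-stimulated genes with a promoter (57.7%), in 2 of 15 MHC class I genes and in 3.47% of all 17583 genes with a promoter. A match is a description of the letters and not a binding site. Stretches of 5 of them are printed 5′ to 3′ on the strand of the gene, with the motif in capitals, as examples from genes whose ratios ranged widely, picked after their values were seen: B2m (chr2:122147518-122147587, plus strand), Bst2 (chr8:71537557-71537632, minus strand), Igtp (chr11:58199492-58199555, plus strand), Gbp7 (chr3:142530253-142530322, plus strand, motif on the opposite strand) and Rsad2 (chr12:26456533-26456602, minus strand, motif on the opposite strand).
B2m: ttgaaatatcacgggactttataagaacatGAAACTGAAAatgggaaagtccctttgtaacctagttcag
Bst2: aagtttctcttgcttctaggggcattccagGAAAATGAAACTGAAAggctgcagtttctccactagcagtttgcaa
Igtp: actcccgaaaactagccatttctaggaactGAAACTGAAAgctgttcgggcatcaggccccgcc
Gbp7: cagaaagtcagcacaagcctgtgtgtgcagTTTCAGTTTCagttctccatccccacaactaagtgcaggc
Rsad2: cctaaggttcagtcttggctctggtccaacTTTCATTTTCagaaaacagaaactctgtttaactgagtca

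Bst2 holds 2 overlapping copies. Rsad2 carries the motif and had a log2 ratio of -0.29, and Gbp7, another interferon-induced GTPase, had 4.16. Gbp7 had under 10 CPM in the 2D monoculture, so no direction was read from its ratio.

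Genes induced by low oxygen were higher for a part of the list. Of 20 with at least 10 CPM in the 2D monoculture, 7 were over 2-fold higher, against 3.66% of the class, and 0 lower, with a median log2 ratio of 0.59 (1.004 with GC content and length removed, when 10 were higher). Car9, a carbonic anhydrase of the cell surface, had 175 CPM in the tumor and 10.1 CPM in the 2D monoculture (log2 ratio 3.98, interval 4.03 to 4.19 with nothing added), and 65.2 CPM in the spheroid. Bnip3, a mitophagy receptor, had 499.7 and 110 CPM, Selenbp1, a selenium-binding protein, 119.2 and 23.9 CPM, and Higd1a of the respiratory chain 252 and 78.9 CPM. Pdk1, the kinase that shuts pyruvate dehydrogenase, had 145 and 51.9 CPM. Vegfa, the vessel growth factor, had 177 and 107 CPM, which did not pass 2-fold, and was highest in the spheroid with 453 CPM. At the other end, P4ha2, a prolyl hydroxylase of collagen, had 60.2 and 84.8 CPM. The tumor had the highest value of the 4 libraries for 9 of the 20 genes, against 21.7% of the class.

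The core of the hypoxia response element, ACGTG on either strand, was found in 14 of 21 hypoxia genes with a promoter (66.7%) and in 20.2% of all genes with one. The stretches of Bnip3 (chr7:138909579-138909644, minus strand), whose overlapping matches on both strands form 1 palindrome, and of Selenbp1 (chr3:94932849-94932913, plus strand, motif on the opposite strand) are shown because they belong to the genes of the list with the largest ratios after Car9. Both are of GRCm38.p6, with the motif in capitals.
Bnip3: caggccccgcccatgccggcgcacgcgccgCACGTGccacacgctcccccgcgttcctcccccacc
Selenbp1: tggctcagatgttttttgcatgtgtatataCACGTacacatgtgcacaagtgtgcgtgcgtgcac

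Genes of mitosis were higher in the tumor for 10 of 25, against 3.66% of the class, and lower for 2, with a median log2 ratio of 0.55 (0.77 with GC content and length removed), and the tumor had the highest value of the 4 libraries for 17 of the 25, against 21.7% of the class. Top2a, the topoisomerase of chromosome condensation, had 544 CPM in the tumor and 168 CPM in the 2D monoculture, and Mki67, the proliferation antigen Ki-67, 193 and 87.3 CPM. Bub1, a kinase of the spindle checkpoint, had 128 and 39.0 CPM. In contrast Cdc20, the activator of the anaphase-promoting complex, had 56.7 and 143 CPM and Plk1, a mitotic kinase, 58.2 and 127 CPM. With GC content and length removed 8 of the 25 mitosis genes were higher and 0 lower, against 4.84% and 5.56% of the class. The 24 genes of DNA replication and G1/S split, with 3 higher and 5 lower, against 3.66% and 22.5% of the class. Their median of -0.28 turned to 0.07 when the class was centred and to 0.25 with GC content and length removed. Tyms, thymidylate synthase, had 98.1 and 39.3 CPM, whereas Cdt1, a licensing factor of replication, had 34.01 and 122 CPM.

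None of 40 ribosomal protein genes passed 2-fold, but 36 were above 0, with a median log2 ratio of 0.55 (0.37 with GC content and length removed). Rplp0 of the stalk had 2229 and 2058 CPM and Rps3 2039 and 1417 CPM. Reads of these genes may be shared with processed pseudogenes. In nucleolar ribosome biogenesis, Npm1, nucleophosmin, was the 1 gene of 25 that passed 2-fold upward (1095 and 501 CPM) and 8 passed it downward. The class had 3.66% higher and 22.5% lower. The median of the 25 was -0.63 and turned to 0.12 with GC content and length removed, when 0 were higher and 1 was lower. Polr1a, the large subunit of RNA polymerase I, had 54.9 and 196 CPM.

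Glycolysis genes had a median of -0.08, which turned to 0.16 with total counts and to 0.44 with GC content and length removed. Ldha, lactate dehydrogenase, had 3596 and 2573 CPM, and Eno2, the neuronal enolase, was lowest with 6.59 and 59.5 CPM. Reads on Eno1, the common enolase, were nearly absent in both libraries (0.887 and 0.793 CPM), and a near-identical copy exists, so its level is uncertain. Among 29 genes of oxidative phosphorylation, Uqcrc1 of complex III alone passed 2-fold (153 and 402 CPM) and the median was 0.12 (-0.06 with GC content and length removed). Of 27 genes of cholesterol and fatty acid synthesis, 3 were higher and 5 lower, against 3.66% and 22.5% of the class. Their median of -0.15 turned to 0.09 with total counts and to 0.40 with GC content and length removed. Scd1, a desaturase also abundant in fat cells, had 578 and 134 CPM, whereas its paralog Scd2 had 830 and 1944 CPM. Fasn, fatty acid synthase, had a log2 ratio of -1.51 (331 and 945 CPM), and of 0.30 once GC content and length were removed.

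NRF2 targets and iron genes were lower in the tumor for 11 of 20 and higher for 1, where the class had 22.5% lower, with a median log2 ratio of -1.11 (-0.97 with GC content and length removed). The tumor had the lowest value of the 4 libraries for 17 of the 20, against 46.5% of the class. Slc7a11, which imports cystine for glutathione, had 12.9 CPM in the tumor, against 420 CPM in the 2D monoculture, 115 CPM in co-culture and 234 CPM in the spheroid (log2 ratio -4.92, interval -5.08 to -4.96 with nothing added). Srxn1, sulfiredoxin, which repairs peroxiredoxins, had 53.2 CPM in the tumor and 1355 CPM in the 2D monoculture (log2 ratio -4.64, interval -4.70 to -4.64 with nothing added). Gclm of glutathione synthesis had 26.7 and 181 CPM, Hmox1, heme oxygenase, 247 and 1261 CPM, and Txnrd1, thioredoxin reductase, 132 and 591 CPM. Not all members followed: Prdx1, a peroxiredoxin, had 1153 and 872 CPM, and Nqo1, a quinone reductase, 10.4 and 16.02 CPM, neither past 2-fold. The ferritin chains Fth1 (1471 and 3408 CPM) and Ftl1 (3582 and 5958 CPM) stood lower, with Ftl1 short of 2-fold, and Tfrc, the transferrin receptor, was the 1 higher gene (434 and 203 CPM, log2 ratio 1.10, and 0.67 with GC content and length removed).

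The antioxidant response element, searched as TGACNNNGC on both strands, was found in 4 of 15 NRF2 and iron genes with a promoter (26.7%) and in 12.4% of all genes with one. Gclm (chr3:122245393-122245461), Txnrd1 (chr10:82859084-82859152) and Prdx1 (chr4:116685436-116685504), all on the plus strand of GRCm38.p6 with the motif on the opposite strand, are shown because the first 2 were lower in the tumor and the last was not.
Gclm: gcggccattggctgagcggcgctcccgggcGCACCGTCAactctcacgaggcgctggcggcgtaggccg
Txnrd1: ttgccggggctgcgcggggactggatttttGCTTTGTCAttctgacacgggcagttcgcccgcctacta
Prdx1: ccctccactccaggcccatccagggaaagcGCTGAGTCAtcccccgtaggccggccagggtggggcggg

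Targets of p53 were lower for 12 of 17, against 22.5% of the class, and higher for 0, with a median of -1.62 (-1.51 with GC content and length removed). Cdkn1a, the cell cycle inhibitor p21, had 118 CPM in the tumor, against 847 CPM in the 2D monoculture, 515 CPM in co-culture and 813 CPM in the spheroid. Bbc3, the BH3-only protein PUMA, had 5.43 and 42.8 CPM, Gadd45a of DNA damage signalling 19.6 and 114 CPM, and Phlda3, an inhibitor of AKT, 86.6 and 416 CPM. Mdm2, the ligase that degrades p53, had 65.8 and 203 CPM. Sesn1, a sestrin, was highest of the 17 with 32.6 and 19.0 CPM. Fas, the death receptor, missed the mean of 10 CPM and had the highest ratio of the whole list (4.95 and 0.140 CPM). The tumor had the lowest value of the 4 libraries for 12 of the 17, against 46.5% of the class.

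Genes of the ATF4 stress response were lower for 13 of 23, against 22.5% of the class, and higher for 0, with a median of -1.38 (-0.67 with GC content and length removed), and the tumor was lowest of the 4 libraries for 21 of the 23, against 46.5% of the class. Trib3, a pseudokinase, had 34.5 and 191 CPM, Atf3 21.7 and 173 CPM, Atf5 43.5 and 319 CPM, and Ppp1r15a, the phosphatase subunit GADD34, 18.2 and 171 CPM. Atf4 itself had 407 and 671 CPM and did not pass 2-fold. Chaperones of the endoplasmic reticulum were lower for 4 of 20, a share no larger than the 22.5% of the class, with a median of -0.44 (-0.37 with GC content and length removed, when 0 were lower). Hspa5, the chaperone BiP, had 1858 and 2421 CPM. Heat shock chaperones were also no more often lower than the class, with 4 of 19 and a median of -0.24. That median turned to 0.10 when the class was centred, but to -0.43 with GC content and length removed. On that last scale 4 of 19 were lower and 1 higher, against 5.56% and 4.84% of the class. Hsp90ab1 of the cytosol had 1995 and 5711 CPM, while its stress-induced paralog Hsp90aa1 had 2466 and 2917 CPM. Hspb1, the small heat shock protein HSP25 of muscle and other tissues, had 68.3 and 0.133 CPM.

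**Figure D3:**
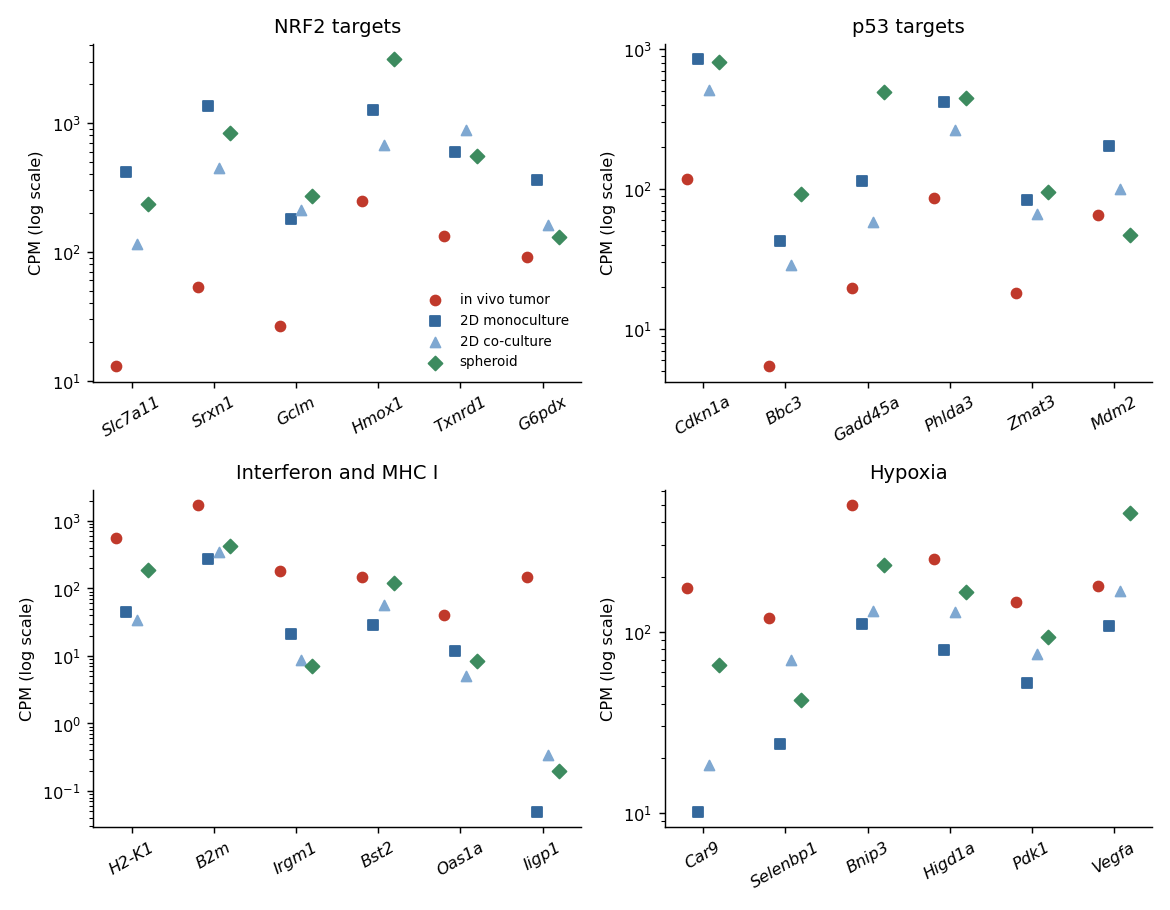
CPM (y axis, log scale) of 6 genes each of the NRF2, p53, interferon with MHC class I, and hypoxia lists in the 4 libraries, 1 point per library. The 6 genes of each panel were picked from the lists. Red circles of the tumor lie lowest for the 6 NRF2 targets shown, from 12.9 CPM for Slc7a11. They lie highest for the 6 interferon and MHC class I genes shown, of which Iigp1 had to be higher than in the 2D monoculture to be a member. Over the whole list the tumor was lowest for 17 of 20 NRF2 and iron genes. It was highest for 12 of 13 interferon-stimulated and 6 of 9 MHC class I genes with at least 10 CPM in the 2D monoculture.

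Signalling genes were mixed. Of 14 immediate early genes with at least 10 CPM in the 2D monoculture, 3 were lower and 0 higher, against 22.5% and 3.66% of the class. Their median of -0.25 turned to 0.51 with GC content and length removed. Jun had 64.4 and 200 CPM, whereas Fos had 44.4 and 23.7 CPM. Of 9 feedback genes of ERK signalling, 4 were lower and 1 higher, against the same 22.5% and 3.66%. Their median was -0.58 (-0.35 with GC content and length removed, when 1 was lower and 2 were higher). Ccnd1, cyclin D1, had 96.2 and 390 CPM, and Dusp6, a phosphatase of ERK, 129 and 55.4 CPM. Of 25 lysosomal genes 4 were lower, a smaller share than the 22.5% of the class, with a median of -0.59 (-0.14 with GC content and length removed, when 1 was lower and 2 were higher). Ctsd, cathepsin D, had 1148 and 2731 CPM and Ctsl, cathepsin L, 383 and 199 CPM.

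Integrin and adhesion genes were lower for 14 of 22, against 22.5% of the class, and higher for 0, with a median of -1.38. With GC content and length removed 5 were lower and 1 higher, with a median of -0.33. Flna, the actin crosslinker filamin A, had 294 and 864 CPM, Actn4, an alpha-actinin, 221 and 775 CPM, and Tln1, talin, which links integrins to actin, 197 and 750 CPM. L1cam, a neural adhesion molecule, was lowest with 1.71 and 26.3 CPM, and Itgb1, the common integrin beta chain, was highest of the 22 with 790 and 546 CPM. Itga7, the laminin-binding integrin chain of muscle, lay between the limits with the highest ratio of the whole list (34.3 and 1.82 CPM). Of genes of very large proteins, 10 of 24 were lower and 2 higher, against 22.5% and 3.66% of the class. Their median was -0.60 (-0.07 with GC content and length removed, when 3 were lower and 3 higher). Dync1h1, the dynein heavy chain, had 221 and 1622 CPM, whereas Ahnak, a giant scaffold protein of many tissues, had 207 and 34.5 CPM.

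**Figure D4:**
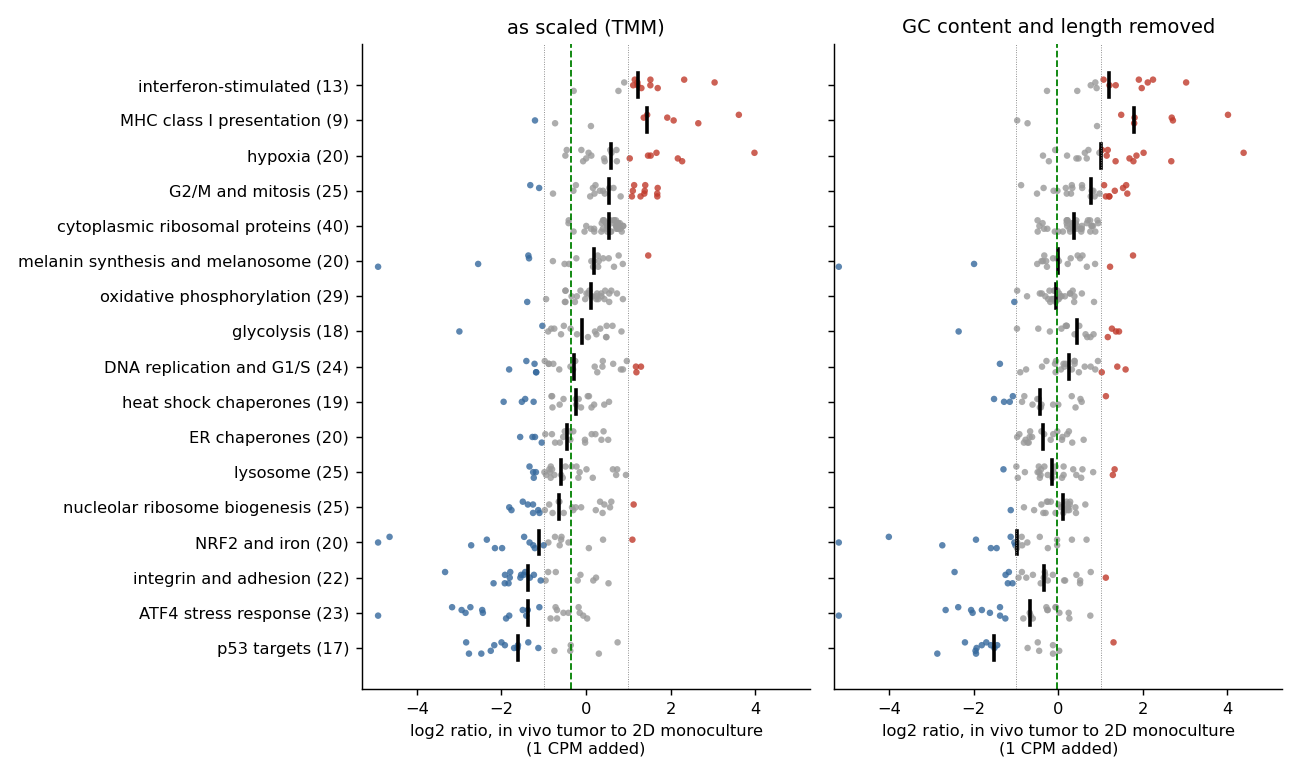
Log2 ratios, tumor over 2D monoculture with 1 CPM added (x axis), of genes with at least 10 CPM in the 2D monoculture on 17 lists, with TMM factors (left) and with GC content and length removed (right). Points are genes (red and blue past 2-fold), black bars list medians, and the green dashed line the class median (-0.35 left, -0.04 right); the p53 and NRF2 medians stay under -0.9 in both panels and the adhesion median moves from -1.38 to -0.33.

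Among single genes of the class with at least 10 CPM, the 20 highest ratios held genes of several cell types. After Des came Ankrd23, a muscle ankyrin repeat protein (310.5 and 10.8 CPM), and Tmsb4x, the actin-binding thymosin beta 4 (904 and 33.3 CPM). Emp1, an epithelial membrane protein, had 249 and 15.4 CPM, Selenop, the selenium transporter, 540 and 49.7 CPM, and Lcp1, the plastin of leukocytes, 136 and 14.4 CPM. Thbs1, thrombospondin, had 136 CPM in the tumor, against 12.1 CPM in the 2D monoculture, 33.9 CPM in co-culture and 1.76 CPM in the spheroid. Ifitm3, which blocks entry of viruses, had 263 and 39.1 CPM, Ctsc, cathepsin C, 230.5 and 30.3 CPM, and Col4a1 of basement membrane 291 and 43.7 CPM. The log2 ratios of Epha3, an ephrin receptor, Ndrg2, S100a6, a calcium-binding protein, Mgll, a lipase of monoacylglycerols, Eno3, the muscle enolase, the metalloprotease Adam12 and the growth hormone receptor Ghr lay between 2.76 and 3.46. The lists of other cell types held 20 genes of this class, and 7 of the 20 were higher, against 3.66% of the class. For the rest of the 330 higher genes, which were on none of these lists, the cell of origin was not tested.

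Map1a, a protein of neuronal microtubules, had 5.63 CPM in the tumor and 310.5 CPM in the 2D monoculture, the lowest ratio of all (-5.55, interval -5.88 to -5.69 with nothing added), with 87.3 CPM in co-culture and 204 CPM in the spheroid. Fbxo2, a ubiquitin ligase subunit that binds glycoproteins, had 2.01 and 104 CPM, Uchl1, a deubiquitinase of neurons, 5.77 and 125 CPM, and Adh7, an alcohol dehydrogenase, 0.881 and 34.2 CPM. Adamts14 and Adamtsl5 of the extracellular matrix had 6.65 and 99.8 CPM, and 6.12 and 93.6 CPM. Sphk1, a sphingosine kinase, had 5.25 and 65.0 CPM. The log2 ratios of Phldb3, Slc22a18, the kinase Cdk18, Arhgef19, the adaptor Dok5, Ggt1, which cleaves extracellular glutathione, and the myosin Myh14 lay between -3.96 and -3.34. Map1a, Fbxo2 and Uchl1 had between 29.2 and 204 CPM in the other cultures, but Serpinb9b, a granzyme inhibitor, had 26.7 CPM in the 2D monoculture, 0.992 CPM in the tumor, 1.96 CPM in co-culture and 1.18 CPM in the spheroid, and Ppm1e, a phosphatase, had 41.3 CPM there and between 3.28 and 3.41 CPM in the other 3 libraries.

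The ratio followed the base composition of the transcripts. In 10 equal classes of GC content, the median log2 ratio of genes with at least 10 CPM in the 2D monoculture went from 0.33 in the class of lowest GC content to -1.07 in the highest, and the share of genes over 2-fold lower from 1.81% to 53.2%. In 10 classes of length, the median went from 0.16 for the shortest transcripts to -0.55 for the longest. With both trends removed, 428 genes (4.84%) were over 2-fold higher and 491 (5.56%) lower of 8835 with a value. Removing these medians also removes the shift of all genes together, and centring alone gave 870 higher and 1079 lower. How far the excess of lower genes went with GC content and length was not tested. Their part in the difference of any single gene was not tested either.

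**Figure D5:**
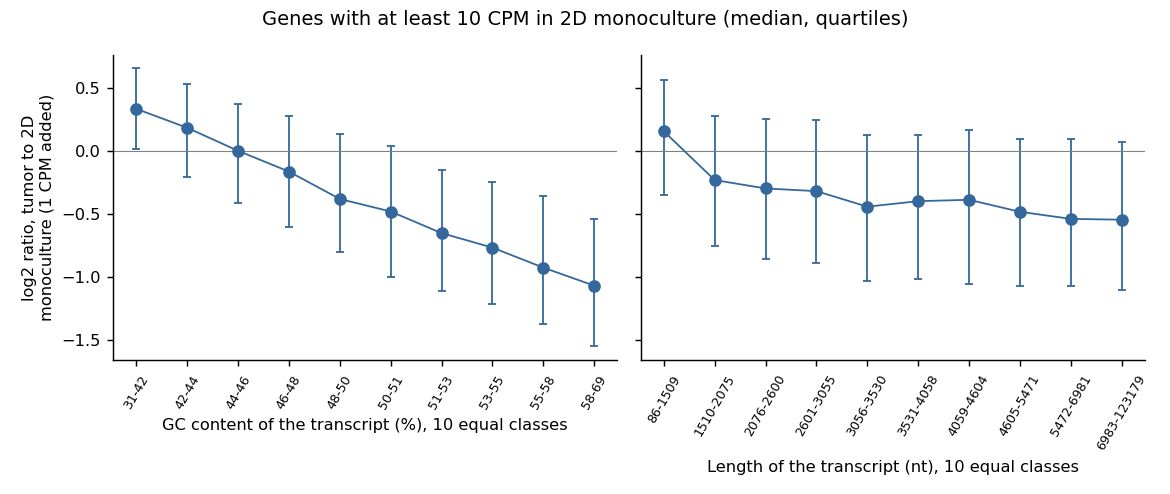
Median log2 ratio, tumor over 2D monoculture with 1 CPM added (y axis, points; bars are quartiles), of genes with at least 10 CPM in the 2D monoculture in 10 equal classes of GC content (left, percent) and of length of the longest transcript (right, nucleotides). The median falls from 0.33 to -1.07 along GC content and from 0.16 to -0.55 along length.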

How the data were processed

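The deposited table holds raw read counts (whole numbers, not normalized) of 4 libraries, 1 per condition. The submitters' processing notes name Trimmomatic, STAR, featureCounts and the mm10 build. For versions, settings, strand of counting and annotation, the sources used here give nothing. Libraries were prepared with oligo(dT) enrichment and sequenced as paired ends, per the labels.

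From the counts, CPM were computed with TMM factors of all 4 libraries (edgeR 4.0.16, R 4.3.3), 1.16 for the tumor and 0.984 for the 2D monoculture. Genes were kept from a mean of 10 CPM over both libraries, and log2 ratios had 1 CPM added. Intervals of ratios are exact binomial intervals (scipy 1.17.1). No test was made. DESeq2 1.42.0 size factors and other scalings, filters, pseudocounts and limits were alternatives. The scripts were tested on simulated data. GC content and length came from the longest GENCODE M21 transcript of a gene (GRCm38, the assembly of mm10). A value was found for 98.1% of members, and the median log2 ratio of 10 by 10 classes was removed. Promoters are 300-base RefSeq windows, of which only the bases before the start of the transcript were searched for motifs.

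The members, lists and settings were chosen with earlier results of these data known. Named genes are the 15 highest in the tumor under 1 CPM, the 20 highest and 20 lowest ratios with at least 10 CPM, the 5 highest and 5 lowest between, each list's 4 highest means and its extreme ratios, the 5 genes with most reads, the genes nearest to each limit, and Xist and 6 pigment genes. Other genes named were picked from the lists after their values were seen. The columns of the 2D co-culture and spheroid entered only the TMM factors and side values. Results of some genes are not reported here.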

Additional observations from a re-analysis of the deposited data

How the results depend on the processing

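No paired analysis was possible because either arm is a single library. With TMM factors the class with at least 10 CPM had 330 higher and 2024 lower genes. These became 641 and 1349 with total counts, 632 and 1306 with upper quartiles, and 870 and 1079 with the class centred. A mean of at least 50 CPM gave 159 and 1101, a fold of 1.5 gave 1036 and 3530, and a fold of 4 gave 47 and 247. With GC content and length removed 491 were lower, and Fasn turned to 0.30. Limits of 0.5 and 20 CPM left 199 higher genes and 1662 between the limits, and limits of 2 and 5 CPM left 75 between. The genes under 1 CPM in the 2D monoculture numbered 1483 with a mean of at least 1 CPM, 7966 with no filter and 58 with a mean of at least 50 CPM, and the genes between 1 and 10 CPM in the 2D monoculture 2291, 2372 and 22. Filters and limits change these counts by construction, and for the other alternatives the cause was not tested. DESeq2 size factors gave 369 and 1887, and TMM factors of the 2 libraries alone 375 and 1965. Keeping all genes with at least 10 CPM in the 2D monoculture whatever the mean, which was added after the data were seen, gave 330 and 2124. The list medians of p53, NRF2, ATF4, interferon, MHC class I, hypoxia and mitosis kept their sign under the 11 alternatives in which they were recomputed. With 1 library a side there was no replicate check. Counting error alone changed the 330 and 2024 little, since counting intervals wholly past 2-fold gave 313 and 1958.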

Other observations

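Several genes that belong to no list, picked after their values were seen, were high in the tumor and under 1 CPM in the 2D monoculture. Chemokines were among them: Ccl9 had 180 CPM, Ccl8 135 CPM, Ccl2 65.7 CPM and Ccl7 55.3 CPM in the tumor, and Ccl8, Ccl2 and Ccl7, ligands that draw monocytes, had no read in the 2D monoculture. Ccl2 had 8.16 CPM in co-culture. The receptor Ccr2, which is on the macrophage list and was counted there, had 79.6 CPM in the tumor and no read in the 2D monoculture. Tgtp1 and Tgtp2, near-identical GTPases induced by interferon gamma, had 224 and 270 CPM, and the split of reads between them is uncertain. H19, an imprinted RNA abundant in muscle, had 174 CPM against 0.0140 CPM.

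In the class with at least 10 CPM, Sqstm1, the autophagy receptor p62 and a target of NRF2, had 701 CPM in the tumor and 4733 CPM in the 2D monoculture. Trpm1, a cation channel of melanocytes controlled by Mitf, had 514 and 97.6 CPM, and Hilpda, a lipid droplet protein induced by low oxygen, 85.0 and 13.996 CPM.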
